A study of Mus musculus with 114 samples.

Results

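The effect of a high fat diet on adipocyte gene expression was compared between 8 and 20 weeks of feeding, gene by gene, to find which diet responses grew and which faded. Of the 38 mice in the series, the 24 fed for 8 or 20 weeks were used, 6 in each of 4 groups, and the 14 mice of the longest feeding time were not part of the comparison. All were male C57BL/6J mice with no stated transgene or deletion, and from 6 weeks of age they ate chow (CD) or a high fat diet (HFD). The groups are therefore CD mice at 8 weeks, HFD mice at 8 weeks, CD mice at 20 weeks and HFD mice at 20 weeks. The study names 2 control diets and does not state which CD mice ate which. A difference in control diet between the feeding times therefore cannot be told apart from time. RNA was sequenced from the floating adipocyte fraction of perigonadal white adipose tissue after collagenase digestion, following a 6 h fast. The quantity tested was the interaction, that is the HFD minus CD difference at 20 weeks minus the same difference at 8 weeks, on the log2(CPM + 1) scale, where CPM is counts per 1000000 reads of the same mouse. It was positive where HFD raised a gene more, or lowered it less, at 20 weeks than at 8. Of 29132 genes in the deposited table, 10228 had a mean log2(CPM + 1) above 2 over the 24 mice and were tested.

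White adipocytes store fatty acids as triglyceride, make fatty acids from glucose, and secrete hormones such as adiponectin. During prolonged overnutrition the perigonadal depot is known for the arrival of macrophages, some of which surround dying adipocytes and take up their lipid through an enlarged lysosomal system, and for the deposition of extracellular matrix around the remaining adipocytes. Mitochondria of the adipocyte oxidise pyruvate, fatty acids and branched-chain amino acids and feed the respiratory chain. These systems can change at different speeds as obesity proceeds.

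Total reads per mouse ran from 10562845 to 12611013 in CD mice at 8 weeks, 13201234 to 15480388 in HFD mice at 8 weeks, 13091365 to 14292115 in CD mice at 20 weeks and 13159018 to 14961360 in HFD mice at 20 weeks, so the diets differed in depth without overlap at 8 weeks, and 1 read was worth 0.0646 to 0.0947 CPM. The feeding times ended at different ages of the mice, so time and harvest cannot be told apart. The labels name no harvest or sequencing batch, so it is not known whether CD and HFD mice of the same feeding time were processed together. All 15 adipocyte markers were tested and none was at 0. Their summed level was 52545 to 64109 CPM in CD mice at 8 weeks, 40773 to 50873 CPM in HFD mice at 8 weeks, 44549 to 71365 CPM in CD mice at 20 weeks and 27644 to 37264 CPM in HFD mice at 20 weeks. The fraction also held macrophage transcripts. All 17 macrophage core genes were tested and none was at 0, and their summed level was 438 to 2124 CPM, 1377 to 4614 CPM, 1044 to 4461 CPM and 6467 to 13524 CPM in the same order of groups. CD mouse 1 at 20 weeks, with 4461 CPM of macrophage core genes, stood above the other CD mice of its time. None of the 10 T and NK cell genes or the 6 B cell genes reached the level needed for testing. In bulk samples, fewer cells of a type and less RNA per cell cannot be told apart, and this holds for every group of genes below.

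The diet effect differed between the 2 feeding times in 2655 of 10228 genes (26.0% of genes tested) at an adjusted p under 0.05, by limma's moderated test with Benjamini-Hochberg adjustment over all genes tested. The interaction was positive in 1576 of them (15.4%) and negative in 1079 (10.5%), its median SE was 0.159, and 493 of the called genes differed by at least 2-fold. HFD changed 5832 genes at 8 weeks (57.0%), of which 3748 were higher (36.6%) and 2084 lower (20.4%). At 20 weeks it changed 6677 genes (65.3%), of which 4303 were higher (42.1%) and 2374 lower (23.2%). Another 3369 genes were called at both times in the same direction with no call of the interaction. Of the called genes 59.4% had a positive interaction, against 46.5% in a count model by edgeR on the recovered reads (1203 positive and 1384 negative). By limma with TMM scaling it was 50.6% (1389 positive and 1358 negative), so the balance of directions depended on the scaling. When the mice of the longest feeding time were added to the fit, the estimates stayed the same by construction, the median SE rose to 0.202 and 458 genes were called, so most calls described here rest on the fit of the 4 groups.

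**Figure D1:**
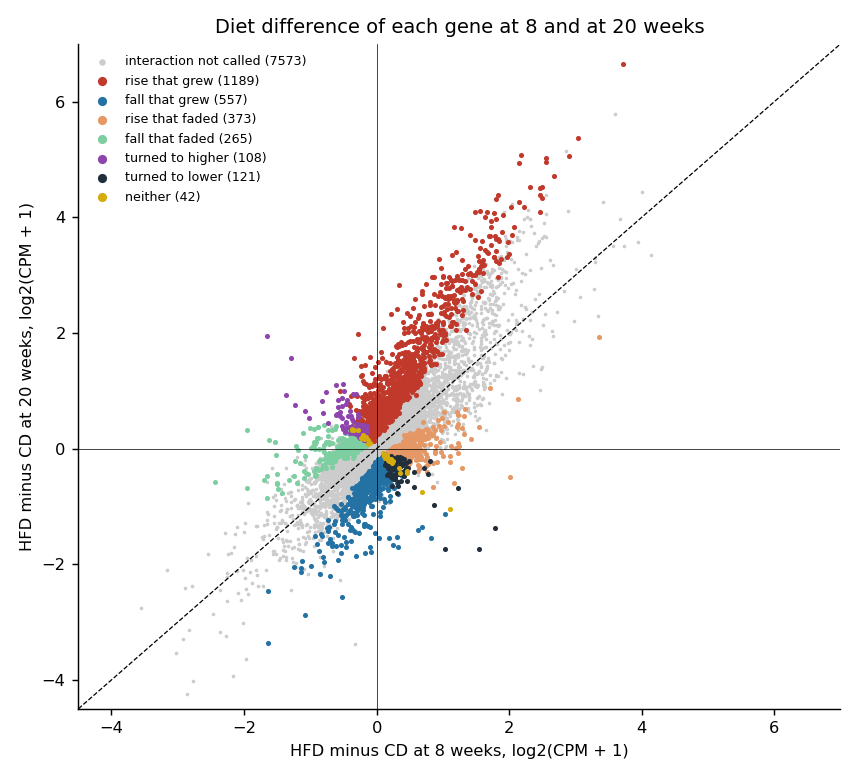
HFD minus CD difference at 8 weeks (x axis, log2) against the same difference at 20 weeks (y axis, log2) for each of the 10228 genes tested, coloured by the class of the 2655 genes with a called interaction. Genes on the diagonal had the same diet effect at both times, the 1189 genes whose rise grew lie above it, mostly in the upper right, 3 genes lie beyond the axes, and the 229 genes that turned lie in the upper left and lower right of the plot.

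Most of the called responses grew. A rise under HFD was larger at 20 weeks in 1189 genes, of which 694 had no called difference at 8 weeks and 495 were already higher then. A fall was larger at 20 weeks in 557 genes, 441 of them without a call at 8 weeks and 116 with one. A response seen at 8 weeks had faded by 20 weeks in 638 genes, comprising 373 rises and 265 falls. In 229 genes the called difference turned, 108 from lower to higher and 121 from higher to lower, and 42 genes were called at neither time. The median HFD difference of the rises that grew went from 0.22 at 8 weeks to 0.90 at 20 weeks, and that of the falls that grew went from −0.02 to −0.55. Among rises that faded the median went from 0.42 to −0.03, and among falls that faded from −0.47 to 0.03. These medians follow from how the classes were defined, and over all genes tested the median was 0.10 at 8 weeks and 0.13 at 20 weeks. With each of the 24 mice left out in turn, 1964 genes were called every time, including all 229 that turned.

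The interaction can arise from a change with time in the HFD mice, in the CD mice, or in both. Between 8 and 20 weeks 5012 genes (49.0% of genes tested) differed in HFD mice, with 2700 (26.4%) rising and 2312 (22.6%) falling. In CD mice 1017 genes differed (9.94%), with 464 rising (4.54%) and 553 falling (5.41%). Of the 2655 genes with a called interaction, 2264 (85.3%) differed with time in HFD mice and 289 (10.9%) in CD mice. The change was called in HFD mice but not in CD mice for 2142 genes, in CD mice but not in HFD mice for 167, in both for 122 and in neither for 224. The CD mice that set the baseline include mouse 1 at 20 weeks, and without this mouse the interaction was called in 3555 genes and the CD time difference in 641 of the called genes. The latter count was 191 without CD mouse 4 at 20 weeks and 168 without CD mouse 3 at 8 weeks.

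**Figure D2:**
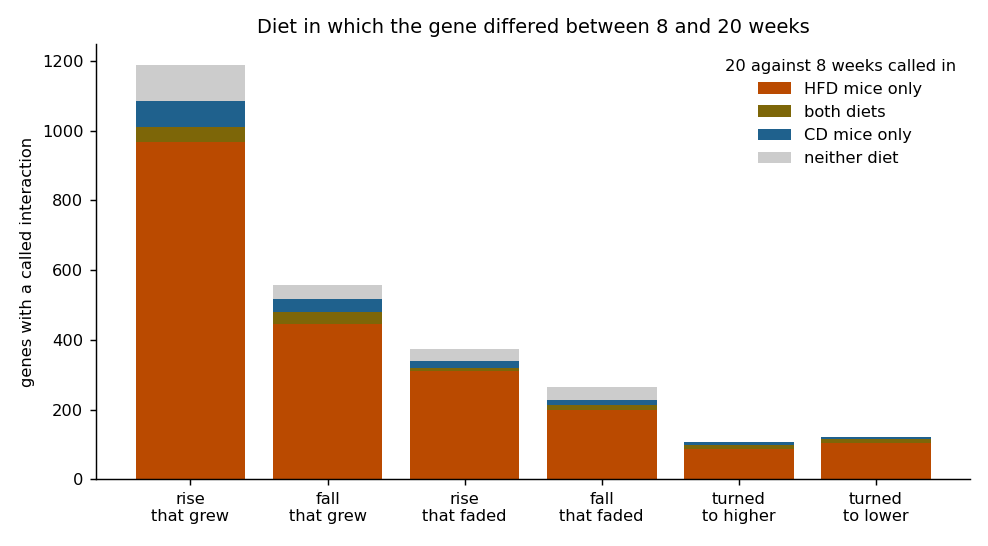
Number of genes with a called interaction (bar length) in each class of diet response, split by whether the gene differed between 8 and 20 weeks in HFD mice only, in CD mice only, in both or in neither. The part for HFD mice only makes up 2142 of the 2655 genes, and the part for CD mice only 167.

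Leaving out predicted genes, the largest rises that grew among genes called with every mouse left out in turn were Ctsk, Zranb3, Cpe, Glipr1, Cd72 and Mmp2. Cpe (chromosome 8, 64592542 to 64693109, GRCm38), which encodes carboxypeptidase E, a processing enzyme of secreted peptides, measured 1.12 to 5.00 CPM in CD mice at 8 weeks (median 2.11), 5.38 to 16.5 CPM in HFD mice at 8 weeks (median 7.29), 2.41 to 8.12 CPM in CD mice at 20 weeks (median 3.95) and 64.2 to 118 CPM in HFD mice at 20 weeks (median 98.9). The diets did not overlap at either time, and the HFD difference went from 1.48 to 4.10, an interaction of 2.62 (SE 0.37, adjusted p = 0.00012). Ctsk (chromosome 3, 95499210 to 95509387), which encodes the collagen-degrading lysosomal protease cathepsin K, measured 4.47 to 9.75 CPM (median 7.07) and 17.3 to 84.8 CPM (median 28.1) in CD and HFD mice at 8 weeks, and 2.35 to 78.9 CPM (median 5.87) and 153 to 490 CPM (median 352) at 20 weeks. Its HFD difference rose from 2.18 to 5.08 (interaction 2.90, SE 0.75, adjusted p = 0.0081), with the highest CD value at 20 weeks still below every HFD mouse. Mmp2 (chromosome 8, 92827290 to 92853421), encoding the gelatinase matrix metalloproteinase 2, measured 1.82 to 6.30 CPM (median 2.39) and 1.74 to 18.2 CPM (median 9.28) at 8 weeks and 0.515 to 14.1 CPM (median 2.81) and 32.1 to 80.2 CPM (median 56.3) at 20 weeks. At 8 weeks the diets overlapped and at 20 weeks they did not, with an interaction of 2.55 (SE 0.64, adjusted p = 0.0065). The log2(CPM + 1) scale understates a diet difference where levels are low. For these 3 genes the interaction was larger by limma than in edgeR's count model, and the cause was not tested. Without CD mouse 1 at 20 weeks limma gave 2.72 for Cpe, 3.50 for Ctsk and 2.94 for Mmp2. Zranb3, which encodes a DNA helicase of replication fork repair, had an interaction of 2.66 (SE 0.57, adjusted p = 0.0025). Glipr1 had one of 2.56 (SE 0.61, adjusted p = 0.005), and Cd72, a surface receptor of B cells and macrophages, one of 2.55 (SE 0.62, adjusted p = 0.0054). The calls of Glipr1 and Cd72 did not hold with the longest feeding time in the fit (adjusted p = 0.051 and 0.061). In edgeR's count model 4 of these 6 genes were not called, with a log2 interaction of 1.78 for Ctsk (adjusted p = 0.12), 1.47 for Glipr1 (adjusted p = 0.23), 0.83 for Cd72 (adjusted p = 0.65) and 2.01 for Mmp2 (adjusted p = 0.052), while Cpe and Zranb3 were called.

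**Figure D3:**
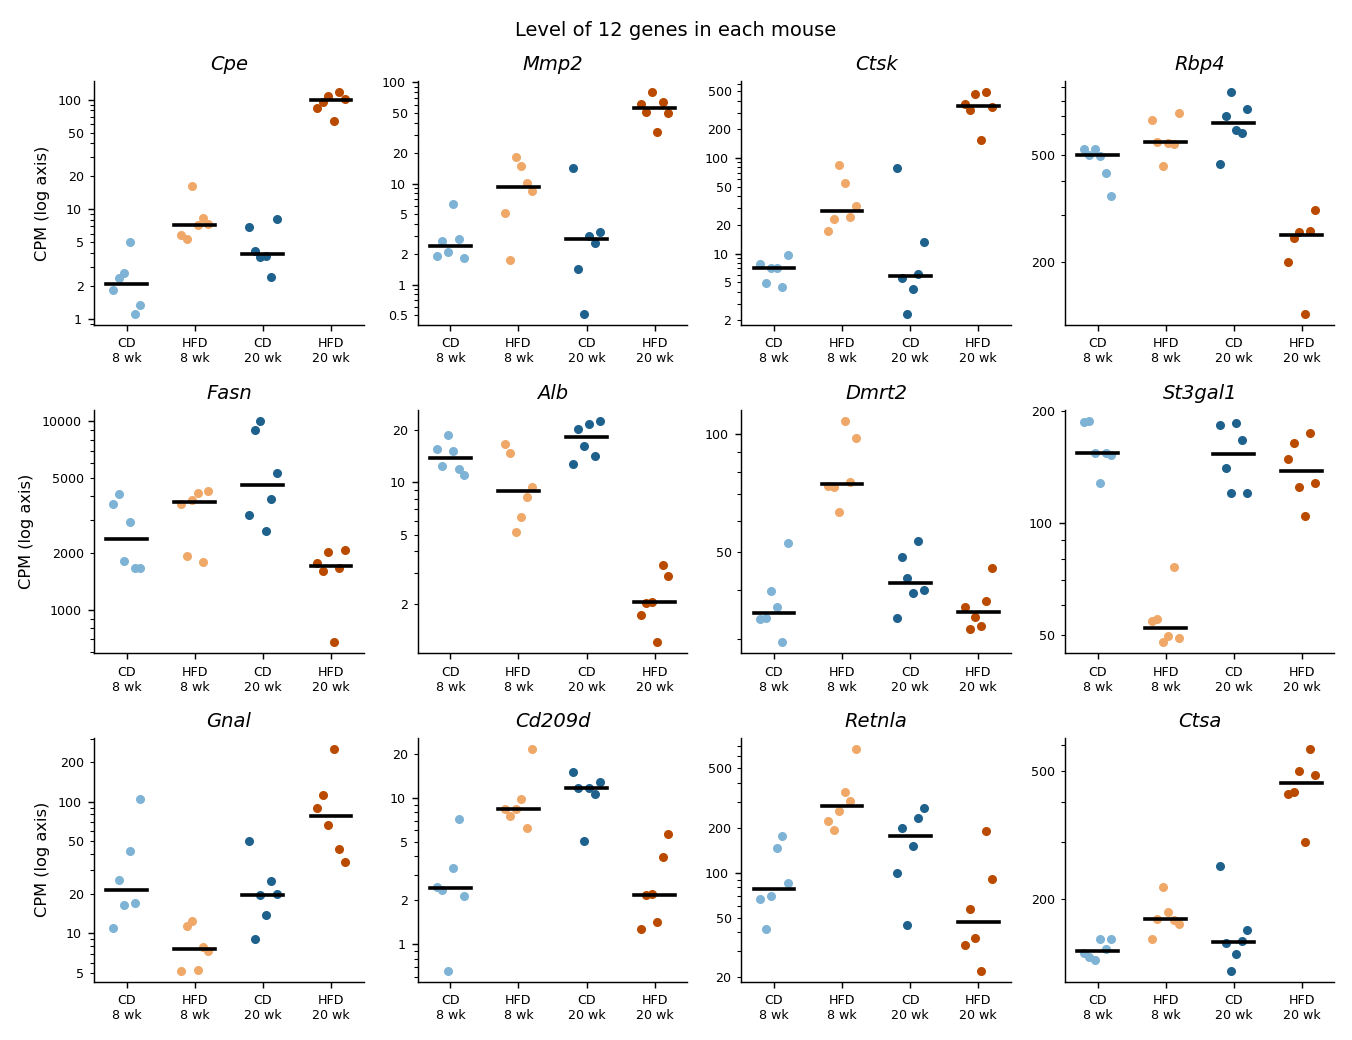
Level of 12 genes in each of the 24 mice (points, CPM, log axis), with the median of each group as a line, for CD and HFD mice at 8 and 20 weeks. HFD mice at 20 weeks lie above all other groups for Cpe, Mmp2, Ctsk and Ctsa and below them for Rbp4 and Alb, whereas Dmrt2 and St3gal1 differ between diets at 8 weeks and overlap at 20 weeks.

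Macrophage genes did not move as 1 group. Of the 17 macrophage core genes (surface receptors and enzymes that most macrophages express), 15 were higher under HFD at 8 weeks and 16 at 20 weeks, and the median difference went from 1.55 to 2.75. None had a called interaction by limma, edgeR or DESeq2, 4 had a positive one at an unadjusted p under 0.05, and 8 of 17 were called without CD mouse 1 at 20 weeks. Mpeg1, encoding a pore-forming protein of phagocytes, had an interaction of 1.74 (SE 0.71, adjusted p = 0.075), and Cd68, encoding a lysosomal membrane glycoprotein, one of 1.51 (SE 0.63, adjusted p = 0.077). Of 13 genes of lipid-associated macrophages, the cells that take up lipid from dying adipocytes, 9 had a larger HFD difference at 20 weeks, with a median that went from 2.14 to 4.34. Cd63, Lipa and Ctsd are shared between this list and the lysosomal one. The count of 9 was 4 in the edgeR test, 2 with the longest feeding time in the fit, 3 with the macrophage core level as a covariate and 11 without CD mouse 1 at 20 weeks. Lgals3, encoding the carbohydrate-binding protein galectin-3, measured 183 to 427 CPM (median 290.2) and 337 to 1118 CPM (median 517) in CD and HFD mice at 8 weeks, and 121 to 727 CPM (median 241) and 1255 to 2761 CPM (median 2087) at 20 weeks. The diets overlapped at 8 weeks and separated at 20 weeks (interaction 1.97, SE 0.48, adjusted p = 0.0054). Gpnmb, encoding a glycoprotein of lipid-laden macrophages, ran from 90.5 to 882 CPM in HFD mice at 8 weeks and from 1550 to 4467 CPM at 20 weeks, against 4.91 to 46.5 CPM and 8.17 to 539.9 CPM in CD mice. Its interaction of 2.94 (SE 1.07, adjusted p = 0.046) was called in 6 of the 24 fits without 1 mouse and was 1.16 in the edgeR test (adjusted p = 0.47). Trem2, the lipid-sensing receptor of these cells, had an interaction of 2.17 (SE 0.77, adjusted p = 0.042) that was called in 7 of them and was 0.90 in the edgeR test (adjusted p = 0.48).

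Genes of resident macrophages went the other way. Of 9 tested, 5 were higher under HFD at 8 weeks, while 1 was higher and 3 were lower at 20 weeks, and 6 had a negative interaction (median −1.78). The summed level of the list was 124 to 737 CPM and 557 to 1313 CPM in CD and HFD mice at 8 weeks, and 218 to 932 CPM and 387 to 854 CPM at 20 weeks. In CD mice 4 of the 9 were higher at 20 weeks than at 8, with a median difference of 1.26. Mgl2, encoding a galactose-binding lectin receptor (chromosome 11, 70130125 to 70137542), measured 3.60 to 13.6 CPM (median 5.80) and 17.6 to 60.3 CPM (median 30.3) at 8 weeks and 6.03 to 19.2 CPM (median 12.8) and 5.48 to 15.2 CPM (median 6.23) at 20 weeks. At 8 weeks each HFD mouse exceeded each CD mouse, and at 20 weeks the diets were mixed, an interaction of −2.50 (SE 0.47, adjusted p = 0.0011). Lyve1, a hyaluronan receptor, had HFD differences of 1.04 and −1.13 at 8 and 20 weeks (interaction −2.17, SE 0.63, adjusted p = 0.016). Cd163, the haemoglobin scavenger receptor, had differences of 0.69 and −1.35 (interaction −2.04, SE 0.58, adjusted p = 0.013) and rose by 1.53 with time in CD mice. The calls of Lyve1 and Cd163 did not hold with the longest feeding time in the fit. Folr2, a folate receptor of the same list, had an interaction of 0.14 (adjusted p = 0.88). The count of 6 was 8 with the macrophage core level as a covariate and 4 in the edgeR test. It was 2 with the longest feeding time in the fit and 4 without CD mouse 1 at 20 weeks. With every mouse left out in turn, 4 of the 9 genes were called each time.

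**Figure D4:**
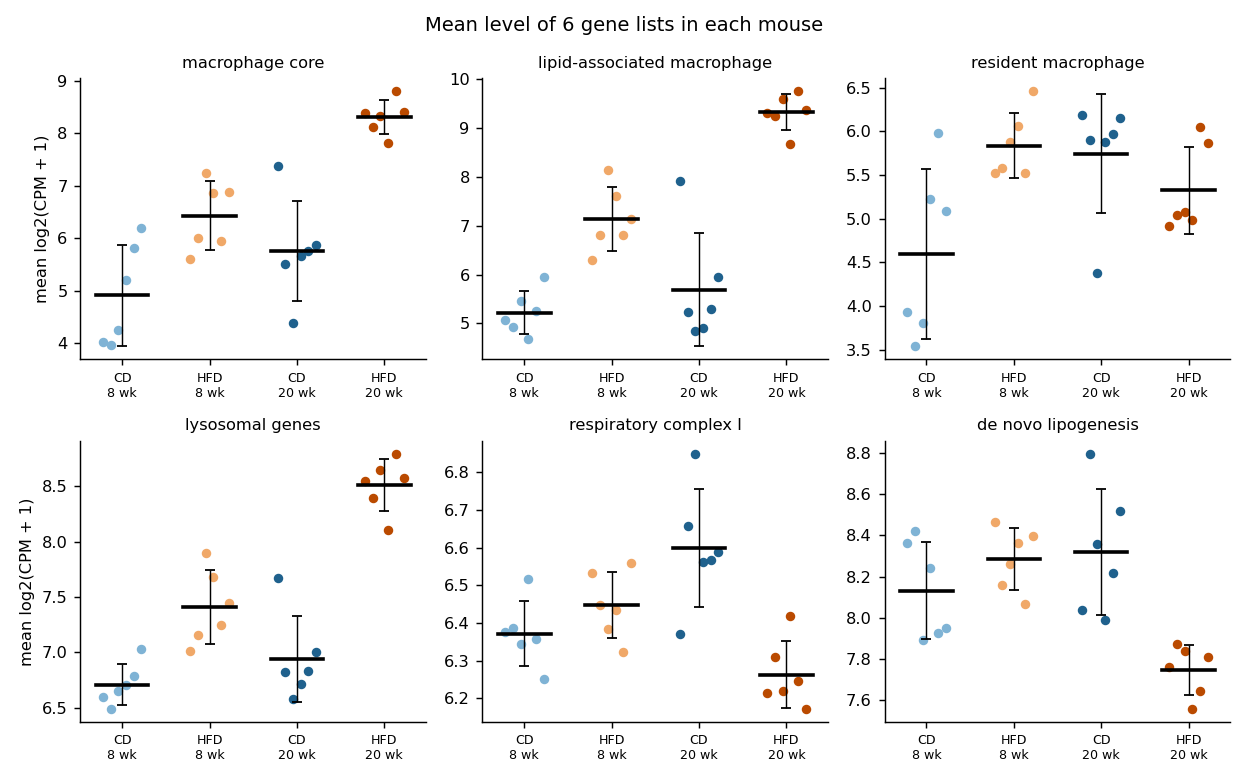
Mean log2(CPM + 1) over the genes of 6 lists in each of the 24 mice (points), with the mean ± SD of each group of 6 mice as lines. The macrophage core, lipid-associated macrophage and lysosomal lists were highest in HFD mice at 20 weeks (group means 8.31, 9.32 and 8.51). The resident macrophage list had nearly equal means in HFD mice at 8 weeks (5.84) and CD mice at 20 weeks (5.75). Respiratory complex I and de novo lipogenesis were lowest in HFD mice at 20 weeks (6.26 and 7.75).

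Lysosomal genes, which encode the acid hydrolases, membrane proteins and proton pump of the degradative compartment, had the highest count of rises that grew of any list. Such a count also depends on the length of the list. The share with a positive interaction was 61.8%, against 69.2% of the lipid-associated macrophage genes and 15.4% of all genes tested. Of 34 genes, 21 had a positive interaction and none a negative one, and the median HFD difference went from 0.54 at 8 weeks to 1.40 at 20 weeks. Of the 21, 20 were rises that grew and 1 turned, and 19 were called with every mouse left out in turn. All but 4 of the 34 rose with time in HFD mice and none changed with time in CD mice. The count was 19 with the macrophage core level as a covariate and 4 with the longest feeding time in the fit. Cd63, a tetraspanin of late endosomes, was lower under HFD at 8 weeks (−0.39) and higher at 20 weeks (0.57), an interaction of 0.96 (SE 0.15, adjusted p = 0.00019). Tcirg1, a proton pump subunit, had an interaction of 2.15 (SE 0.46, adjusted p = 0.0024) and measured 211 to 392.4 CPM in HFD mice at 20 weeks against 15.9 to 114 CPM in CD mice. Lipa, the lysosomal acid lipase that hydrolyses cholesteryl esters and triglycerides, had HFD differences of 1.30 and 3.03 (interaction 1.73, SE 0.41, adjusted p = 0.005).

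Lysosomal genes are known to share a promoter element bound by the transcription factor TFEB, which contains the palindromic letters TCACGTGA and so reads the same on both strands. In the 250 bases before the start site (RefSeq, GRCm38.p6) these letters were present in 245 of 27025 genes with a sequence (0.907%) and in 163 of 8202 genes tested here (1.99%). Among lysosomal genes 23 of 34 had a sequence and 5 held the letters (21.7%), 3 of them among the 13 with a called interaction. Over all genes they were present in 30 of 1265 with a positive interaction (2.37%) and 8 of 870 with a negative one (0.92%). The 3 promoters of lysosomal genes whose rise grew are printed 5′ to 3′ as the 250 bases that end at the start site, on the strand of the gene and with the 8 letters in capitals, to show where the element lies. They are Ctsa at chr2:164833523-164833772 on the plus strand, Atp6v1a at chr16:44139260-44139509 on the minus strand and Ctsd at chr7:142387828-142388077 on the minus strand.
Ctsa: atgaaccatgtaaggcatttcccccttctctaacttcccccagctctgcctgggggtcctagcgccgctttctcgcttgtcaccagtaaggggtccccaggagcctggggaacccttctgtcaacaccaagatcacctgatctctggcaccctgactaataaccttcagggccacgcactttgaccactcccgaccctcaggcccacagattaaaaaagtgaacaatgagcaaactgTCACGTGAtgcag
Atp6v1a: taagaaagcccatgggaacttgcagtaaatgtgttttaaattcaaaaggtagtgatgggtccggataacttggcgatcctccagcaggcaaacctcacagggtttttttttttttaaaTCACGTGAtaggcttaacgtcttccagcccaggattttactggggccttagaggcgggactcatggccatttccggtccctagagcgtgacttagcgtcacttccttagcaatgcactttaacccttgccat
Ctsd: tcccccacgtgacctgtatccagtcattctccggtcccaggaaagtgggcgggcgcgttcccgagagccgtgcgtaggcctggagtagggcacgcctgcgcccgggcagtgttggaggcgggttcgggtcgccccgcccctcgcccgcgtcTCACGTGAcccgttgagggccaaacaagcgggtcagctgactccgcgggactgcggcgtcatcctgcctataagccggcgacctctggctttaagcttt
The element begins 13 bases before the start site of Ctsa, 132 before that of Atp6v1a and 99 before that of Ctsd, and a match of letters is no evidence of binding. Ctsa, the protective protein cathepsin A, measured 129 to 150.1 CPM (median 137) and 149 to 216 CPM (median 172) at 8 weeks and 119 to 253 CPM (median 146) and 300.5 to 583 CPM (median 458) at 20 weeks in CD and HFD mice. The diets overlapped slightly at 8 weeks and were separate at 20 weeks, an interaction of 1.18 (SE 0.21, adjusted p = 0.00062). Atp6v1a, the catalytic subunit of the proton pump, had an interaction of 0.93 (SE 0.22, adjusted p = 0.0048). Ctsd, the aspartic protease cathepsin D, had one of 0.64 (SE 0.21, adjusted p = 0.032), which was called in 18 of 24 fits without 1 mouse and not with the macrophage core level as a covariate (adjusted p = 0.11).

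Genes of the actin cytoskeleton and focal adhesions, through which cells attach to matrix and bear tension, also rose further. Of 45 genes tested, 19 had a positive interaction and 1 a negative one, with median HFD differences of 0.59 and 1.17 at 8 and 20 weeks. The positive count was 8 with the macrophage core level as a covariate and 2 with the longest feeding time in the fit. Tln1, which encodes talin and links integrins to actin, measured 239 to 276 CPM (median 255) and 324 to 421 CPM (median 361) in CD and HFD mice at 8 weeks and 155 to 382 CPM (median 216) and 496 to 763 CPM (median 664) at 20 weeks. The diets were separate at both times and further apart at the second, an interaction of 0.98 (SE 0.20, adjusted p = 0.0017). The 1 negative gene was Mylk, encoding the smooth muscle myosin light chain kinase, at −0.80. Integrins had 4 positive calls and 1 negative call among 14, and Itgav, the alpha V subunit that binds fibronectin and latent TGF-beta, went from 0.33 to 1.77 (interaction 1.44, SE 0.25, adjusted p = 0.0006). The positive share of the integrins was 28.6%, against 15.4% of all genes tested. Their median interaction was 1.08, and 0.18 with the macrophage core level as a covariate, where 4 were called positive and 2 negative. With the longest feeding time in the fit 1 was called positive and 0 negative.

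Extracellular matrix genes were mostly raised at both times. Of 18 fibrillar collagen and collagen processing genes, 13 were higher under HFD at 8 weeks and 17 at 20 weeks, with medians of 0.73 and 1.43, and 5 had a positive interaction. In the same 18 genes the median difference with time was 0.13 in HFD mice and −0.30 in CD mice. Col1a2, encoding a chain of type I collagen, measured 99.6 to 189.8 CPM (median 136) and 157 to 335 CPM (median 224) at 8 weeks and 37.6 to 202 CPM (median 89.5) and 297 to 479 CPM (median 421) at 20 weeks, and its interaction was 1.46 (SE 0.37, adjusted p = 0.0075). Here the diets overlapped at 8 weeks and did not at 20 weeks. The other chain of the same collagen, Col1a1, had HFD differences of 2.55 and 3.66 with an interaction of 1.10 (SE 0.71, adjusted p = 0.25). Loxl1, encoding a collagen and elastin crosslinking enzyme, had an interaction of 1.35 (SE 0.36, adjusted p = 0.0096). Matrix glycoproteins had 5 positive calls among 36 (11 without CD mouse 1 at 20 weeks) and other collagens 2 among 12, shares of 13.9% and 16.7% that are close to the 15.4% of all genes tested. There were 6 positive calls and 1 negative call among 23 matrix proteases and their inhibitors, a positive share of 26.1%. The calls were 2 positive and 1 negative by edgeR and 3 and 3 by DESeq2, so the balance of directions depended on the test. With the macrophage core level as a covariate they were 5 and 1. Dcn, the collagen-binding proteoglycan decorin, measured 154 to 234 CPM (median 173) and 108 to 217 CPM (median 151) at 8 weeks and 127 to 200.1 CPM (median 145) and 239 to 429 CPM (median 391) at 20 weeks. It overlapped between diets at 8 weeks and separated at 20 weeks (interaction 1.5, SE 0.23, adjusted p = 0.00017). Sparc, a collagen-binding matrix protein, had nearly equal HFD differences of 1.32 and 1.36 and an interaction of 0.04 (SE 0.31, adjusted p = 0.94). Pdgfra, the receptor that marks adipose progenitors and fibroblasts, had an interaction of 1.79 (SE 0.56, adjusted p = 0.022) and was not called by edgeR (adjusted p = 0.087). The 9 tested genes of those cells had 3 positive calls and 1 negative call by limma. By edgeR and by DESeq2 they had 2 positive and 2 negative calls, so they did not move as 1 group.

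Both main TGF-beta receptors were higher under HFD at 20 weeks, although at 8 weeks the type I receptor was lower and the type II receptor had no call. Tgfbr1, the type I receptor kinase, measured 81.4 to 153 CPM (median 101) and 55.5 to 98.4 CPM (median 65.7) in CD and HFD mice at 8 weeks, and 54.1 to 102 CPM (median 81.2) and 109 to 234 CPM (median 175) at 20 weeks. Its HFD difference turned from −0.62 to 1.11, an interaction of 1.73 (SE 0.26, adjusted p = 0.00017), with all HFD mice above all CD mice at 20 weeks. Tgfbr2, the type II receptor, went from −0.21 to 0.66 (interaction 0.87, SE 0.19, adjusted p = 0.0025). Tgfb1, the ligand, went from 1.03 to 1.99 (interaction 0.96, SE 0.35, adjusted p = 0.046), called in 5 of 24 fits without 1 mouse and not by edgeR (adjusted p = 0.068). Of 15 TGF-beta family genes 5 had a positive interaction and none a negative one, while with TMM scaling 4 were positive and 2 negative. These receptors belong to 22 tested genes that the study discussed by name, of which 6 had a positive interaction (Tgfbr1, Mmp11, Tgfbr2, Mmp2, Itga5 and Tgfb1) and 2 a negative one (Adipoq and Mmp9), with median HFD differences of 0.24 and 0.78. The study chose these genes on the same mice, so their direction is not independent evidence. Mmp11, the metalloproteinase stromelysin-3, turned from −0.76 to 0.97 (interaction 1.74, SE 0.32, adjusted p = 0.00089). Mmp9, the gelatinase B gene, had an interaction of −1.27 (SE 0.45, adjusted p = 0.043) and was not called by edgeR (adjusted p = 0.064).

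Proliferation genes had 6 positive calls among 14 (12 without CD mouse 1 at 20 weeks, 2 with the longest feeding time in the fit), and all 14 rose with time in HFD mice. Mcm6, a subunit of the replicative helicase, measured 5.30 to 8.72 CPM (median 6.91) and 8.56 to 22.2 CPM (median 11.6) at 8 weeks and 3.97 to 11.7 CPM (median 5.35) and 25.3 to 43.0 CPM (median 37.0) at 20 weeks. The separation between diets was complete at 20 weeks (interaction 1.56, SE 0.30, adjusted p = 0.0012). Fc receptors and their ITAM adaptors had 3 positive calls among 11, which became 8 without CD mouse 1 at 20 weeks. Unfolded protein response genes had 6 positive calls among 22 (27.3%, against 15.4% of all genes tested) and 1 negative call (4.55%, against 10.5%). The positive count was 1 with the macrophage core level as a covariate and 0 with the longest feeding time in the fit. In insulin signalling and glucose uptake, 3 of 17 genes had a positive interaction (17.6%, against 15.4% of all genes tested) and 1 a negative one (5.88%, against 10.5%). Akt1, a kinase downstream of the insulin receptor, measured 66.4 to 94.3 CPM and 71.4 to 90.3 CPM at 8 weeks and 54.9 to 97.0 CPM and 97.4 to 152 CPM at 20 weeks (interaction 0.80, SE 0.17, adjusted p = 0.002). Slc2a4, the insulin-responsive glucose transporter GLUT4, had the negative one (−0.52, SE 0.17, adjusted p = 0.025).

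**Figure D5:**
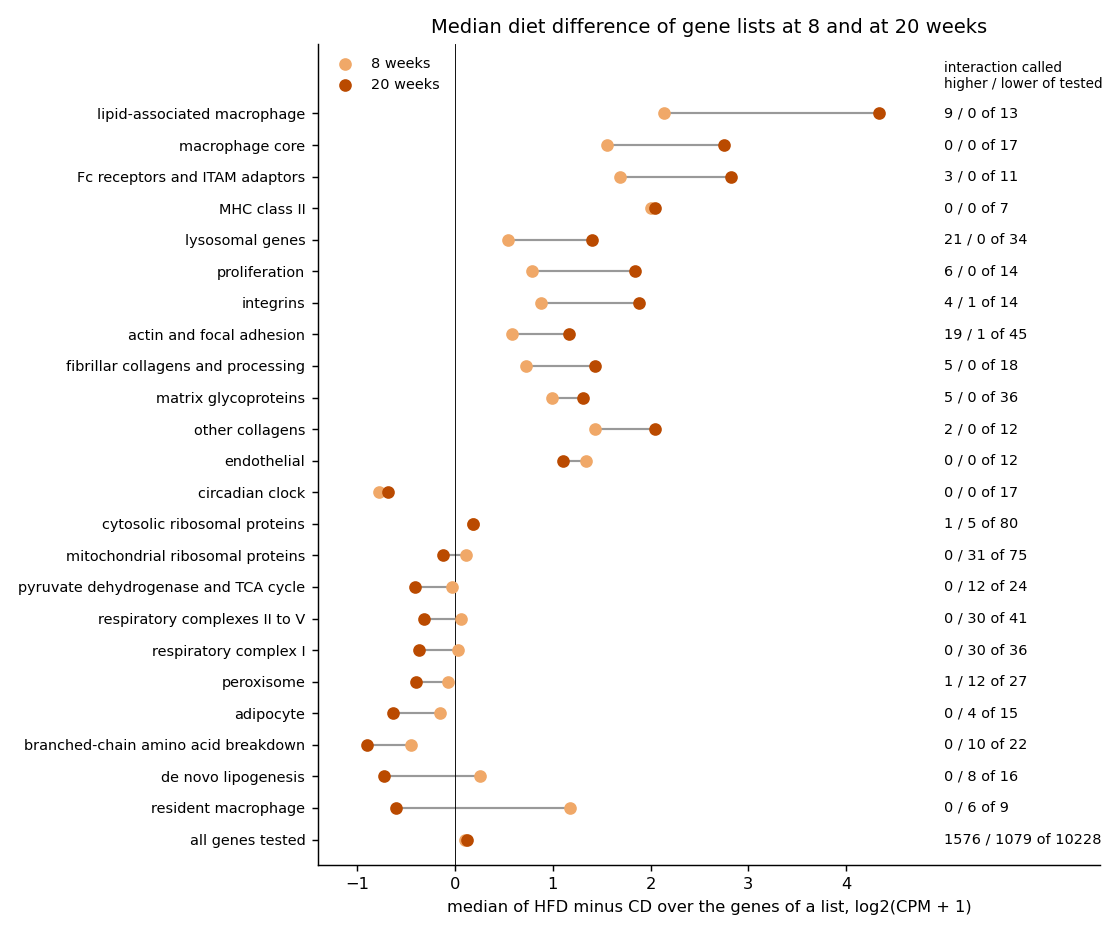
Median HFD minus CD difference (x axis, log2) of the tested genes of 24 lists at 8 weeks and at 20 weeks, joined by a line, with the number of genes of each list that had a positive and a negative interaction. The lysosomal median moved from 0.54 to 1.40, that of respiratory complex I from 0.03 to −0.37 and that of de novo lipogenesis from 0.26 to −0.72, while that of MHC class II was 2.00 and 2.05.

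Most respiratory chain genes had a negative interaction. Of 36 complex I genes, which encode subunits of NADH dehydrogenase, 30 had a negative interaction and none a positive one. At 8 weeks 10 were higher and 2 lower under HFD (median 0.03), and at 20 weeks none was higher and 28 were lower (median −0.37). The median difference with time was −0.19 in HFD mice and 0.23 in CD mice, and 18 genes fell in HFD mice while 12 rose in CD mice. Of the 30 genes, 20 were falls that grew, 8 rises that faded and 2 turned. With the macrophage core level as a covariate 21 were past the threshold, and with the longest feeding time in the fit the count was 1. Ndufa7, an accessory subunit, measured 90.7 to 113 CPM (median 96.4) and 110.4 to 123 CPM (median 121) in CD and HFD mice at 8 weeks, and 109 to 136 CPM (median 119) and 91.3 to 113 CPM (median 92.5) at 20 weeks. The diets overlapped at both times, and the difference turned from 0.27 to −0.33 (interaction −0.60, SE 0.09, adjusted p = 0.00017). Complexes II to V had 30 negative calls among 41, with a median that went from 0.07 to −0.32, and 23 of the 41 rose with time in CD mice while 8 fell in HFD mice. That count was 18 with the macrophage core level as a covariate, 32 in the edgeR test and 0 with the longest feeding time in the fit. Uqcrq, a subunit of complex III, measured 101 to 128 CPM (median 111) and 109.7 to 161 CPM (median 139) at 8 weeks and 114 to 187 CPM (median 147) and 99.3 to 118 CPM (median 108) at 20 weeks. It too overlapped between diets at both times (interaction −0.73, SE 0.14, adjusted p = 0.00099).

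Other mitochondrial genes went the same way in part. Among 75 mitochondrial ribosomal protein genes 31 had a negative interaction and none a positive one, the median HFD difference went from 0.12 to −0.12, and with time 31 fell and 1 rose in HFD mice, while 1 fell and 4 rose in CD mice. Mrps7, of the small subunit, measured 65.7 to 78.8 CPM (median 71.3) and 76.5 to 83.1 CPM (median 80.1) at 8 weeks and 71.4 to 78.4 CPM (median 73.9) and 55.1 to 63.5 CPM (median 58.7) at 20 weeks. All HFD mice lay below all CD mice at 20 weeks (interaction −0.50, SE 0.07, adjusted p = 6.4e-05). Pyruvate dehydrogenase and TCA cycle genes had 12 negative calls among 24 and branched-chain amino acid breakdown 10 among 22, neither with a positive call. Dld, the dihydrolipoamide dehydrogenase shared by the complexes that oxidise pyruvate and branched-chain ketoacids, measured 214 to 262 CPM (median 241) and 229.7 to 285 CPM (median 262) at 8 weeks and 242 to 309 CPM (median 267) and 193 to 213 CPM (median 209.6) at 20 weeks. The groups were separate at 20 weeks (interaction −0.51, SE 0.10, adjusted p = 0.0011). Pcx, the pyruvate carboxylase that refills the cycle and supplies citrate for lipogenesis, had HFD differences of −0.35 and −1.17 (interaction −0.82, SE 0.20, adjusted p = 0.0057). Branched-chain amino acid genes were already low at 8 weeks, with 14 of 22 lower and a median of −0.45, and at 20 weeks 20 of 22 were lower with a median of −0.90. Fatty acid oxidation had 5 negative calls and 1 positive call among 20. The positive gene, Cpt1a, which admits long-chain fatty acids to mitochondria, measured 60.3 to 79.3 CPM and 99.1 to 145 CPM at 8 weeks and 13.5 to 75.8 CPM and 138 to 216 CPM at 20 weeks (interaction 1.31, SE 0.35, adjusted p = 0.0095). In contrast to the mitochondrial ones, 80 cytosolic ribosomal protein genes had median HFD differences of 0.18 at both times, with 1 positive and 5 negative calls.

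De novo lipogenesis, the synthesis of fatty acids from glucose, had 8 negative calls among 16 genes and no positive one, and its median went from 0.26 at 8 weeks to −0.72 at 20 weeks. Fasn (chromosome 11, 120805958 to 120825166), the fatty acid synthase, measured 1662 to 4139 CPM (median 2371) and 1802 to 4268 CPM (median 3752) in CD and HFD mice at 8 weeks, and 2624 to 10103 CPM (median 4608) and 676 to 2071 CPM (median 1723) at 20 weeks. At 8 weeks the diets overlapped and at 20 weeks they were separate, an interaction of −2.02 (SE 0.50, adjusted p = 0.0062). With time it fell in HFD mice, while in CD mice its difference of 1.02 was not called (adjusted p = 0.066). Thrsp, a lipogenic regulator, had an interaction of −1.26 (SE 0.29, adjusted p = 0.0037). Me1, the malic enzyme that supplies NADPH, was a rise that faded (0.75 and −0.30, interaction −1.06, SE 0.29, adjusted p = 0.011). Elovl6, the elongase of palmitate, was another, at 0.86 and −0.67 (interaction −1.53, SE 0.46, adjusted p = 0.02). Acaca, the acetyl-CoA carboxylase, was lower at both times, with differences of −1.14 and −2.13 (interaction −0.99, SE 0.28, adjusted p = 0.013). None of the 16 was called with the longest feeding time in the fit, and 6 were with the macrophage core level as a covariate.

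Genes of secreted proteins were among the largest falls that grew, and which cells of the fraction held their transcripts was not tested. Rbp4 (chromosome 19, 38116620 to 38125321), the retinol carrier of plasma and an adipokine, measured 351 to 529 CPM (median 501) and 457 to 718 CPM (median 559) at 8 weeks and 466 to 862 CPM (median 664) and 128 to 312 CPM (median 253) at 20 weeks. The diets overlapped at 8 weeks (difference 0.31) and all HFD mice were below all CD mice at 20 weeks (difference −1.53), an interaction of −1.84 (SE 0.25, adjusted p = 6.5e-05). Alb (chromosome 5, 90460870 to 90476602), the albumin gene, measured 11.02 to 18.7 CPM (median 13.8) and 5.17 to 16.5 CPM (median 8.85) at 8 weeks and 12.7 to 22.6 CPM (median 18.2) and 1.21 to 3.34 CPM (median 2.04) at 20 weeks. It was separated by diet at 20 weeks only (interaction −2.03, SE 0.32, adjusted p = 0.00023). Orm3, a gene of the orosomucoid acute phase proteins, fell to 2.54 to 4.97 CPM in HFD mice at 20 weeks from 8.33 to 23.3 CPM at 8 weeks (interaction −1.92, SE 0.33, adjusted p = 0.00054), and reads may be shared with its near copies. Adipokines had 4 negative calls among 17 genes, and 15 adipocyte markers had 4 negative calls, with a median that went from −0.15 to −0.64. Retn, encoding resistin, measured 1396 to 1991 CPM (median 1662) and 601 to 1613 CPM (median 1206) at 8 weeks and 1255 to 2149.9 CPM (median 1889) and 341 to 622 CPM (median 495) at 20 weeks. Here too the diets became separate at 20 weeks (interaction −1.34, SE 0.28, adjusted p = 0.0021). Adipoq, encoding adiponectin, had HFD differences of −0.15 and −0.75 (interaction −0.60, SE 0.17, adjusted p = 0.013), with an adjusted p of 0.051 once the macrophage core level was a covariate. With that covariate 1 of the 15 adipocyte markers was called, and the part of macrophage RNA in the fall was not tested further. Lep, encoding leptin, was higher under HFD at both times (2.18 and 2.90) with an interaction of 0.72 (SE 0.73, adjusted p = 0.49). Agt, encoding angiotensinogen, went from −1.64 to −3.35 (interaction −1.71, SE 0.44, adjusted p = 0.0073), and Adrb3, the adipocyte beta-adrenergic receptor, had an interaction of −1.01 (SE 0.36, adjusted p = 0.042).

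Glutathione and antioxidant genes had 12 negative and 2 positive calls among 32, and peroxisome genes 12 negative and 1 positive among 27. Gstz1, a glutathione transferase of tyrosine breakdown, measured 765 to 1023 CPM (median 964) and 851 to 1046 CPM (median 967) at 8 weeks and 833 to 1067 CPM (median 997) and 539.6 to 601 CPM (median 563) at 20 weeks. The overlap of the diets at 8 weeks was gone at 20 weeks (interaction −0.84, SE 0.11, adjusted p = 5.2e-05). Gstm2, another glutathione transferase with close paralogs that may share reads, turned from 0.31 to −0.44 (interaction −0.75, SE 0.12, adjusted p = 0.00036). With the longest feeding time in the fit no peroxisome gene and 2 antioxidant genes were called lower.

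Some responses were present at 8 weeks and gone at 20 weeks. Dmrt2 (chromosome 19, 25672394 to 25679013), which encodes a DM-domain transcription factor, measured 29.4 to 52.5 CPM (median 35.0) and 63.3 to 108 CPM (median 74.5) in CD and HFD mice at 8 weeks, and 33.9 to 53.3 CPM (median 41.5) and 31.8 to 45.4 CPM (median 35.1) at 20 weeks. Every HFD mouse exceeded every CD mouse at 8 weeks and the diets overlapped at 20 weeks, with differences of 1.10 and −0.24 (interaction −1.34, SE 0.19, adjusted p = 0.00013). Its difference with time was −1.14 in HFD mice. Orm1, a further orosomucoid gene, was a rise that faded, from 1.43 to 0.17 (interaction −1.26, SE 0.30, adjusted p = 0.0048). Amhr2, the anti-Müllerian hormone receptor and a gene of mesothelium and gonadal tissue, had an interaction of −1.24 (SE 0.23, adjusted p = 0.00086). For Spint2, a serine protease inhibitor, the level changed with time in both diets, rising by 1.14 in CD mice and falling by 0.49 in HFD mice. CD mice went from 2.59 to 5.06 CPM at 8 weeks to 6.19 to 12.7 CPM at 20 weeks while HFD mice measured 9.24 to 12.1 CPM and 5.78 to 10.8 CPM (interaction −1.63, SE 0.24, adjusted p = 0.00014). The calls of Elovl6, Orm1 and Amhr2 did not hold with the longest feeding time in the fit (adjusted p = 0.12, 0.084 and 0.073).

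Falls that faded included enzymes and regulators of several kinds. St3gal1 (chromosome 15, 67102875 to 67176946), a sialyltransferase of O-linked glycans, measured 127 to 188 CPM (median 154) and 47.7 to 76.2 CPM (median 52.1) at 8 weeks and 119.9 to 185 CPM (median 153) and 104 to 174 CPM (median 138) at 20 weeks. The diets were separate at 8 weeks and overlapped at 20 weeks (interaction 1.41, SE 0.20, adjusted p = 0.00012), and the level rose with time in HFD mice by 1.32. Cyp1b1 (chromosome 17, 79706940 to 79715061), a cytochrome P450 of steroid and retinoid oxidation, measured 38.6 to 94.6 CPM (median 73.1) and 7.24 to 23.6 CPM (median 9.64) at 8 weeks and 29.9 to 57.7 CPM (median 47.0) and 25.5 to 33.3 CPM (median 29.6) at 20 weeks. Its difference shrank from −2.44 to −0.58 (interaction 1.86, SE 0.33, adjusted p = 0.00067). Hlx, a homeobox transcription factor, went from −1.53 to 0.12 (interaction 1.65, SE 0.32, adjusted p = 0.0013), and Lima1, an actin-binding protein, from −1.11 to 0.28 (interaction 1.38, SE 0.28, adjusted p = 0.0018). Inmt, a methyltransferase of indole amines, had an interaction of 2.29 (SE 0.62, adjusted p = 0.01) but measured 25.5 to 58.6 CPM in CD mice at 8 weeks and 4.41 to 18.8 CPM in CD mice at 20 weeks, so its fading went with a fall in chow mice. Spon1, a matrix protein, had an interaction of 1.78 (SE 0.48, adjusted p = 0.01), which did not hold with the longest feeding time in the fit (adjusted p = 0.085). Of 25 SR protein and hnRNP genes, which act in splicing, 20 were lower under HFD at 8 weeks and 10 at 20 weeks, and 6 had a positive interaction.

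Of the genes that turned, those with the largest interactions were Gnal, Cd209d and Retnla. Gnal, encoding a stimulatory G protein alpha subunit, measured 11.02 to 104 CPM (median 21.2) and 5.21 to 12.4 CPM (median 7.62) at 8 weeks and 9.07 to 50.5 CPM (median 19.6) and 34.8 to 250.4 CPM (median 78.0) at 20 weeks. The diets overlapped at both times, and the difference turned from −1.65 to 1.95 (interaction 3.59, SE 0.68, adjusted p = 0.0011). Cd209d (chromosome 8, 3871824 to 3878548), a C-type lectin of the DC-SIGN family, measured 0.663 to 7.14 CPM (median 2.42) and 6.20 to 21.5 CPM (median 8.38) at 8 weeks and 5.08 to 14.9 CPM (median 11.7) and 1.27 to 5.67 CPM (median 2.19) at 20 weeks. HFD mice were thus mostly above CD mice at 8 weeks and mostly below them at 20 weeks, an interaction of −3.28 (SE 0.47, adjusted p = 0.00012), and the level rose by 1.70 with time in CD mice. Retnla (chromosome 16, 48842609 to 48844461), a secreted resistin-like protein of alternatively activated macrophages, measured 41.9 to 177 CPM (median 77.5) and 193 to 673 CPM (median 280.3) at 8 weeks and 45.0 to 272 CPM (median 175) and 22.2 to 189 CPM (median 47.0) at 20 weeks. The diets were separate at 8 weeks and overlapped at 20 weeks (interaction −3.16, SE 0.68, adjusted p = 0.0024).

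Several groups had no call of the interaction. All 7 MHC class II genes, which present antigen, were higher under HFD at 8 and at 20 weeks, with medians of 2.00 and 2.05. Over the same interval they rose by a median of 1.07 in HFD mice and 1.02 in CD mice. H2-Aa, encoding a class II alpha chain, measured 45.5 to 143 CPM (median 90.9) and 176 to 575 CPM (median 359) at 8 weeks and 98.0 to 364 CPM (median 155) and 514 to 1227 CPM (median 691) at 20 weeks. The diets were separate both times and the interaction was 0.08 (SE 0.51, adjusted p = 0.92), although with the macrophage core level as a covariate it was called (adjusted p = 0.023). Of 12 endothelial markers all were higher at 8 weeks and 10 at 20 weeks (medians 1.34 and 1.11). Neither list held a gene with an unadjusted p under 0.05 for the interaction or a call by edgeR or DESeq2. Circadian clock genes had median differences of −0.78 and −0.69, with 11 of 17 lower at each time, and Nr1d1, the repressor REV-ERB alpha, had an interaction of −0.09 (SE 0.20, adjusted p = 0.78). Of the 17 clock genes 1 had an unadjusted p under 0.05 and none was called by edgeR or DESeq2. Adipocyte transcription factors (18 tested) and the TNF, IL-1 and inflammasome genes (17 tested) had no call by limma, with 2 and 3 genes at an unadjusted p under 0.05. Of the latter 1 was called by edgeR and by DESeq2, 15 rose with time in HFD mice and 10 in CD mice, and 3 were called without CD mouse 1 at 20 weeks. The HFD response of these 17 genes was mixed, with 6 higher and 5 lower at 8 weeks and 9 higher and 3 lower at 20 weeks. Their median difference went from 0.60 to 1.53. A missing call does not show that the diet effects were equal.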

How the data were processed

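RNA-seq reads of 38 mice (114 samples in the labels, 3 technical replicates per mouse merged by the authors) were available as 1 CPM column per mouse, of which 24 were used. Per the labels and the study's methods, the authors aligned reads with STAR (version 2.5.2b, also given as 2.5) to mm10 (GRCm38), counted exon reads with featureCounts of Subread 1.5.1 and normalised with edgeR. The deposited CPM columns each summed to 1000000, so no further scaling factor was seen in them. For every mouse 100% of values were whole multiples of 1 read within 0.1 reads, and the recovered counts were used for edgeR 4.0.16 (2587 genes called) and DESeq2 1.42.0 as alternatives. The recovered totals serve as depth, which limits precision of low genes by counting error only.

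Values were taken as log2(CPM + 1), genes with a mean above 2 over the 24 mice were kept, and group means were fitted with limma 3.58.1 (R 4.3.3, mean-variance trend, 20 residual degrees of freedom) with no covariate. Calls used a Benjamini-Hochberg adjusted p under 0.05 over 10228 genes. A called interaction was sorted by the diet differences called at each time into responses that grew, faded, turned or were called at neither time. Named genes were the 6 largest of each growing or fading class and the 3 largest that turned among genes called in all 24 fits without 1 mouse, leaving out predicted genes, plus the genes the study discussed and, in a described list, up to 4 members with the smallest p and further members by role. The members and the 66 gene lists were chosen with earlier results of these data known. By symbol, 21 listed genes were not found. Gene positions came from RefSeq GRCm38 for 27250 of 29132 genes (93.5%). The 26 symbols that a spreadsheet had turned into dates were replaced by the RefSeq symbol of the same gene identifier, where there was one. In 15 pairs of mice per group no 2 columns were identical, and the lowest chi-square per gene was 11.5, so each mouse counted as 1 replicate. The script was tested on simulated data. Alternatives changed the samples, filter, pseudocount, scaling, test, depth, block, covariate and the mice left out. Authors' comparisons were not used. Some genes are not reported here.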

Additional observations from a re-analysis of the deposited data

Results flagged for a closer look

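The diet difference changed between the 2 feeding times in 2655 genes by limma's interaction test, and of the genes called at both times with opposite signs 108 turned from lower to higher and 121 from higher to lower.

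In the groups of 6 mice, a mouse stood apart where its gap to the nearest other mouse, divided by the range of the group, passed Dixon's 95% critical value for 6 samples. This held in 15 of 140 groups of values, where chance flags about 1 in 20 groups. CD mouse 1 at 20 weeks was high for Zranb3 (0.725), Glipr1 (0.723), Cd72 (0.680) and the mean of the lipid-associated macrophage genes (0.638), and low for Hlx (0.707). CD mouse 3 at 20 weeks was low for Lima1 (0.703), Cd209d (0.679) and the mean of the resident macrophage genes (0.828). HFD mouse 4 at 20 weeks was low for Ctsk (0.634), Fasn (0.776) and Elovl6 (0.727). Among CD mice at 8 weeks, mouse 6 was high for Glipr1 (0.639) and mouse 4 for Mmp2 (0.677). Among HFD mice at 8 weeks, mouse 5 was high for St3gal1 (0.692) and mouse 6 for Cd209d (0.642). Both CD mice at 20 weeks also lie at the ends of their group for macrophage core genes, with mean log2(CPM + 1) of 7.37 in mouse 1 and 4.38 in mouse 3 against 5.50 to 5.87 in the other 4. The part of macrophage RNA in these values was not tested.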

How the results depend on the processing

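No gene named by the rule or by the study reversed. Of 1865 comparisons of a single gene with an alternative, 1799 stayed on the same side of the threshold in the same direction, 64 lost and 2 gained a call. The 27 genes named by the rule had been chosen for a call in all 24 fits without 1 mouse. Their comparisons with those fits could not lose a call, so the count of 1799 is no independent measure of stability. The 24 fits without 1 mouse gave 2219 to 3555 genes, 1250 to 2258 higher and 914 to 1297 lower. They gave 1395 to 2521 that grew, 468 to 790 that faded and 169 to 292 that turned, with 1923 to 2894 changed in HFD mice and 168 to 641 in CD mice. With all 6 groups in the fit there were 458 genes (283 higher, 175 lower, 318 grew, 97 faded, 43 turned, 399 changed in HFD mice, 38 in CD mice), all among the 2655, because the 34-week mice raised the median SE from 0.159 to 0.202. Of the 27 genes the rule named by size, 18 kept the call there. Array weights gave 4116 genes (2413 higher, 1703 lower, 1267 faded, 434 turned, 3580 in HFD mice, 693 in CD mice), with a median SE of 0.137. With the macrophage core level as a covariate 1881 genes were called, of which 1035 were higher, 737 grew, 30 turned and 1117 changed in HFD mice. This covariate itself differs between diets and times. Requiring a 2-fold change left 493 genes (407 higher, 86 lower, 401 grew, 51 faded, 39 turned, 446 in HFD mice, 58 in CD mice) by construction. DESeq2 gave 476 changed in CD mice, and the cause was not tested. The replicate block of mouse numbers gave 2379 genes, 2322 of them shared. The totals under the other filters, pseudocounts, scalings, tests and depth lay between 2426 with a stricter filter and 2873 with DESeq2. The labels do not say that equal numbers pair the mice. The correlation of deviations exceeded 0.1 in 16 of 36 same-number pairs, with a median of 0.059, and in 7 of the 36 the best match had the same number. These values alone cannot exclude a pairing.

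Depth limits genes near the filter, and each feeding time has 6 mice per diet, with no harvest or batch named in the labels.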

Other observations

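The 34-week mice (8 CD and 6 HFD), which are in none of the 4 groups compared and entered only the fit of all 6 groups, gave further values for the genes whose diet response faded or turned, with no test. St3gal1 had a median of 37.8 CPM in CD mice (25.7 to 69.1) and 57.3 CPM in HFD mice (34.2 to 115). Each 34-week CD mouse was below each 20-week mouse of either diet for this gene. Cyp1b1 had medians of 4.98 CPM in CD mice (3.16 to 52.9) and 11.9 CPM in HFD mice (9.43 to 23.8), and Hlx had 4.67 and 9.08 CPM. Dmrt2 had medians of 92.5 CPM in CD mice (34.3 to 128) and 53.8 CPM in HFD mice (35.2 to 97.6). Gnal, which had turned to higher, had 16.9 CPM in CD mice (2.73 to 46.5) and 49.6 CPM in HFD mice (32.8 to 108). Retnla had 46.3 CPM in CD mice and 27.8 CPM in HFD mice.

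For genes whose response had grown, Cpe had medians of 7.17 CPM in CD mice (3.22 to 67.1) and 128 CPM in HFD mice (43.4 to 292), and Rbp4 had 788 CPM in CD mice (203 to 1311) and 186 CPM in HFD mice (127 to 415). For both genes the range in CD mice overlapped that in HFD mice at 34 weeks, whereas at 20 weeks the diets were separate.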
